A study of Mus musculus with 16 samples.

Results

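The proteasome genes of mouse macrophages were followed in RNA-seq libraries made before and during the uptake of dying cells. The members were the genes with symbols of the Psma, Psmb, Psmc, Psmd, Psme, Psmf and Psmg series followed by a number, with a summed count of at least 100 over all 16 libraries. The immunoproteasome genes Psmb8, Psmb9 and Psmb10 and pseudogenes were left out. This gave 46 of the 55416 gene IDs in the table, chosen by name and by a summed level over all groups rather than by a difference between groups. Just inside the threshold lay Psma8, a testis form of a core subunit, with 309 counts in all, and Psmc3ip with 342. Just outside lay Psmb11, the thymus catalytic subunit, with 11 counts. All 46 passed the expression filter, under which 14168 genes were tested.

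The proteasome is the protease that degrades most proteins tagged with ubiquitin in the cytosol and nucleus. Its core is a barrel of stacked rings: outer rings of alpha subunits (Psma genes) gate the entrance, and inner rings of beta subunits (Psmb genes) hold the protein-cutting sites. A regulatory cap (Psmc and most Psmd genes) binds ubiquitin chains, removes them, and unfolds the substrate with a ring of ATPases. Other activators (Psme genes) can cap the core in its place, and assembly factors (Psmg genes and some Psmd genes) help build core and cap without staying in the finished particle. In macrophages the complex also cuts antigens into peptides for MHC class I and releases NF-kB from its inhibitor.

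Hoxb8 macrophages, which come from mouse bone marrow progenitors kept immature by the transcription factor Hoxb8, were left for 45, 90 or 180 min with apoptotic Jurkat cells (a leukaemia line of human T cells), or were kept alone. Each of the 4 groups held 4 libraries of total RNA depleted of ribosomal RNA, numbered here in file order, with totals between 10.7 M and 41.7 M counts. The labels give no genotype, animal or number of clones, nor the hour at which macrophages alone were collected, so the effect of time in the dish and that of the apoptotic cells cannot be told apart. Since no label says that a group's libraries are separate cultures, the p-values rest on a spread among libraries that may be technical. Summed levels of 9 macrophage markers were 10436 to 10752 CPM (counts scaled to library size) in macrophages alone, 11347 to 12369 at 45 min, 10218 to 10570 at 90 min and 9467 to 10743 at 180 min. Of 17 T cell or Jurkat markers, 6 (Cd3e, Cd3g, Cd2, Cd7, Bcl11b and Tcf7) had no count in any library. The summed level of the 17 was 0.469 to 1.47 CPM in macrophages alone, 0.579 to 1.69 at 45 min, 1.46 to 2.38 at 90 min and 2.28 to 4.13 at 180 min. The proteasome genes together took 0.386% to 0.444% of the counts of a library. Reads from human RNA that match mouse proteasome genes could not be set apart in the counts, and their part in any value below was not tested. In bulk RNA, fewer cells of a type and less RNA per cell cannot be told apart.

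By role, the 46 genes were 8 alpha ring and 7 beta ring genes of the core, 6 ATPases, 3 other base genes and 8 lid genes of the cap, 4 core assembly and 3 cap assembly factors, 5 activators and 1 inhibitor. The remaining gene, Psmc3ip, shares only its name with the family: it encodes a factor of meiotic recombination. Levels per length were compared among the 32 core and cap genes in macrophages alone, as CPM per kilobase of exon. Psmb6, which carries the cut after acidic residues, stood at 128 ± 6.57 CPM per kb (SD, n = 4), and Psmd2, the cap scaffold that docks ubiquitin shuttles, at 126 ± 4.45 CPM per kb. These did not differ beyond their spread. Psmd8 of the lid followed at 110.0 ± 2.18 CPM per kb, apart from both its neighbours in the order. From Psmb3 (66.8 CPM per kb, rank 9) to Psma2 (37.0 CPM per kb, rank 26), each gene lay within the spread of the next. The order of neighbours there is not resolved, but the ends, at 66.8 ± 3.02 and 37.0 ± 1.51 CPM per kb, lay apart beyond their spread. Psmb5, the subunit that cuts after hydrophobic residues, was in that stretch at 40.3 ± 2.67 CPM per kb. The lowest of the genes used outside the testis was Psmb1 at 27.0 ± 0.820 CPM per kb, and Psma8 stood at 0.459 ± 0.201 CPM per kb. Length here joins all annotated exons of a gene, 3427 bases for Psmb1 beside 1160 for Psmb7. Before division by length Psmb1 averaged 92.4 CPM in macrophages alone, above Psmb7 at 86.9 CPM. The order per kb thus depends on the annotated length.

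**Figure D1:**
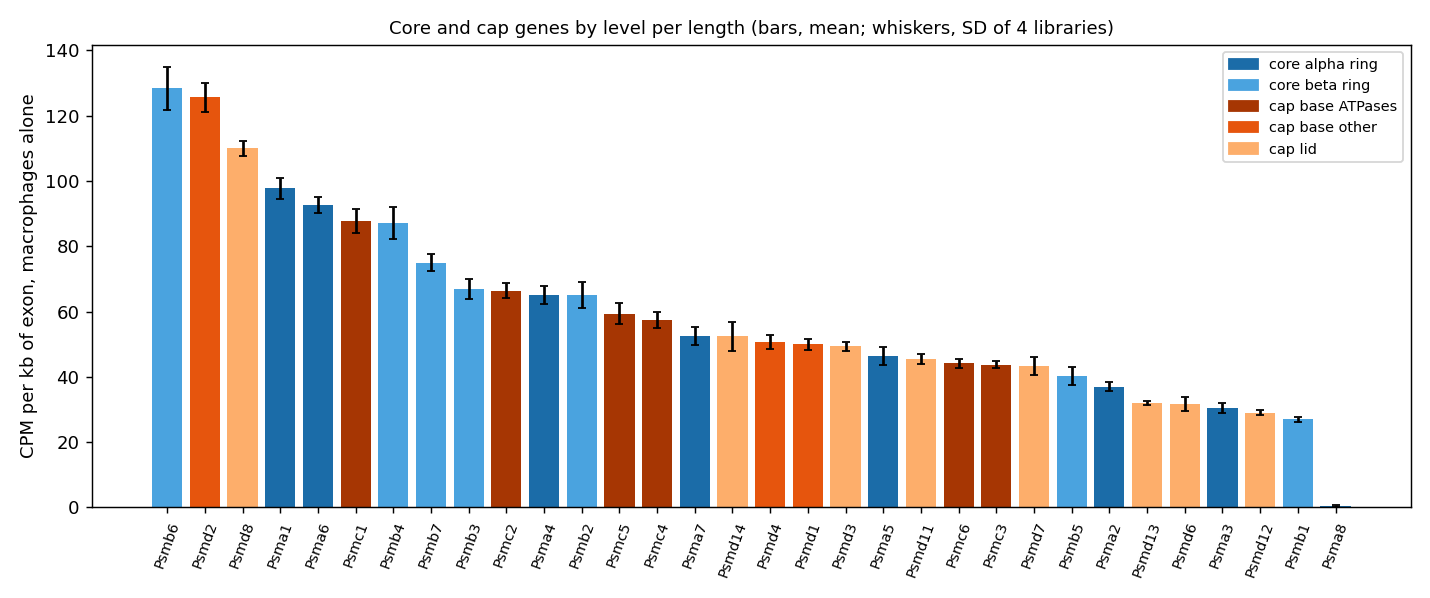
Level per length of the 32 core and cap genes in macrophages alone, with the gene on the x axis and mean CPM per kb of exon on the y axis; whiskers are the SD of 4 libraries and colours give the role. Psmb6 and Psmd2 stand highest at 128 and 126 CPM per kb, and Psma8 is near 0.

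Changes were small in size at every time. Of the 46 genes, 26 changed with time in edgeR's quasi-likelihood F test of the 3 exposed groups together, Benjamini-Hochberg adjusted across all 14168 genes, against 44.6% of all genes. They were 2 of 8 alpha ring genes, 6 of 7 beta ring genes, 5 of 6 ATPases, 2 of 3 other base genes, 4 of 8 lid genes, 1 of 7 assembly factors, all 5 activators and the inhibitor Psmf1. A gene is called here at an adjusted p under 0.05, and fold changes are log2 coefficients of the same fit. In the 5 comparisons made, the activator gene Psme2b was the only member to differ by 2-fold or more. The summed level of the 32 core and cap genes was 3152 to 3242 CPM in macrophages alone, 3293 to 3501 CPM at 45 min, 2993 to 3125 CPM at 90 min and 3024 to 3187 CPM at 180 min. All libraries of 45 min lay above all others in this sum, and all libraries of 90 min lay below macrophages alone.

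At 45 min, core and cap genes stood slightly higher than in macrophages alone. Of the 46 members 10 rose (21.7%), against a background of 4.69% of all genes called higher, and 1 fell (2.17%), against 6.11%. The 10 were Psma6, Psmb3 and Psmb6 of the core, the ATPases Psmc1, Psmc3 and Psmc4, the ubiquitin receptor Psmd4, Psmd8 and Psmd13 of the lid, and the activator Psme1; the activator Psme4 fell. Their rises ran from 0.14 for Psmd8 to 0.24 for Psmb6 on the log2 scale. The median log2 fold change of all 46 was 0.10, with 36 above 0, against a median of 0.0042 over all genes. The groups did not overlap for 12 members above and 1 below macrophages alone, against 8.17% and 8.77% of all genes. Summed macrophage marker levels also lay higher at 45 min than in macrophages alone, with 3 of the 9 markers called higher and none lower, and their part in these rises was not tested. The count of rises fell to 6 without library 4 of macrophages alone and 5 without library 4 of 45 min, and the 1 fall was lost without library 2 of macrophages alone. The members were shorter than the rest, with a median exon length of 1505 bases, beside 2936 over all genes tested. With a trend on length and GC content removed, 7 rises were called, but not those of Psmb3, Psmc1, Psmc3, Psmc4, Psmd4, Psmd8, Psmd13 and Psme1, nor the fall of Psme4, and with libraries thinned to the smallest total 6 rises were called.

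At 90 min the balance was the other way: 11 members (23.9%) were called lower than in macrophages alone, against 9.97% of all genes, and 1 (2.17%) was called higher, against 11.1%. The 11 were Psmb4 and Psmb5 of the core, Psmc2, Psmd2 and Psmd11 of the cap, the core assembly factor Psmg2, the activators Psme1, Psme2, Psme2b and Psme3, and the inhibitor Psmf1. The gene called higher was Psmd6 of the lid. The median of the 46 was -0.057, against 0.0033 over all genes, and the libraries of 11 members lay wholly below and of none wholly above macrophages alone, against 10.2% and 11% of all genes. The count of falls depended on single libraries: it was 3 without library 3 of macrophages alone, 5 without library 4 of 90 min, and 7 without library 2 or library 4 of macrophages alone. Psmd6 was no longer called without library 1, 2 or 4 of macrophages alone, 1, 2 or 3 of 90 min or 2 or 3 of 180 min, which left no rise, and without library 4 of 90 min there were 2. With a length and GC trend removed 18 falls were called and no rise. Of the 9 macrophage markers, 4 were also called lower and 2 higher at 90 min, and their part in these falls was not tested.

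At 180 min 12 members (26.1%) were called lower than in macrophages alone, against 16% of all genes, and 1 (2.17%) was called higher, against 15.1%. The falls were those of Psmb1, Psmb4 and Psmb5 of the core, Psmc2, Psmc5 and Psmd2 of the cap, the cap assembly factor Psmd9, the activators Psme1, Psme2, Psme2b and Psme4, and Psmf1. Psmd1, the scaffold of the cap base, was the gene called higher. The median was -0.053, against 0.0082 over all genes, with 9 members wholly below and 1 wholly above macrophages alone, against 14.8% and 13.8% of all genes. Without library 3 of macrophages alone 5 falls were called, and without library 3 of 180 min 6. No rise was called without library 1 or 2 of macrophages alone, 1 of 90 min or 1, 3 or 4 of 180 min, and 2 rises were called without library 2, 3 or 4 of 90 min. With thinned libraries 7 falls were called, and with a length and GC trend removed 19. At 180 min 5 of the 9 macrophage markers were also called lower and 1 higher, and their part was not tested either.

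**Figure D2:**
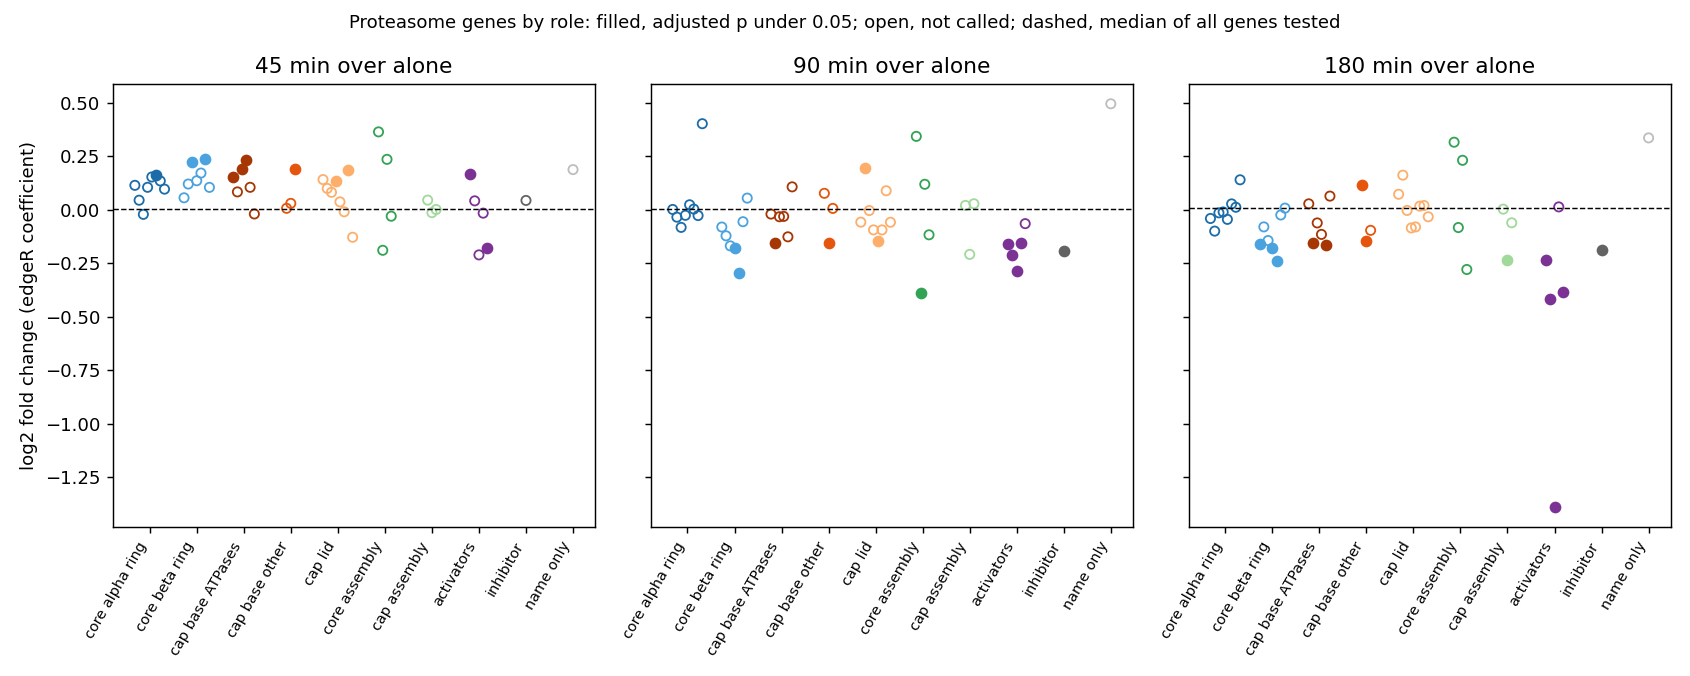
Log2 fold change (y axis) of each of the 46 genes by role (x axis) at 45, 90 and 180 min over macrophages alone, with filled points for genes called at an adjusted p under 0.05. Most core and cap points lie above the dashed median of all genes at 45 min, and the activators Psme2b, Psme2 and Psme4 lie lowest at 180 min, Psme2b at -1.39.

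The largest block of calls lay between the exposed groups. At 90 min 20 members (43.5%) were lower than at 45 min, against 13.3% of all genes, and 1 (2.17%) was higher, against 14.8%. Among them were 5 of 7 beta ring genes and 5 of 6 ATPases, 2 of 3 other base genes and 3 of 8 lid genes, but 1 of 8 alpha ring genes and none of 7 assembly factors. All 7 beta ring genes had a fold change below 0, with a median of -0.29. So did 7 of 8 alpha ring genes (median -0.12) and 6 of 7 assembly factors (median -0.087). The SE was 0.14 to 0.18 for the 4 core assembly factors, all of low count, beside 0.055 to 0.081 for the beta ring. The median of all 46 was -0.14, against 0.024 over all genes. Without overlap between the groups, 19 members lay below and 1 above 45 min, against 12.2% and 12.9% of all genes. Library totals did not overlap either, at 24.4 M to 41.7 M counts at 45 min and 13.6 M to 17.4 M at 90 min. With libraries thinned to the smallest total, the count of falls was also 20. Other differences between these libraries were not tested. Of the 20 falls in the main fit, 18 were called under every one of the 23 alternative settings. The rise, that of Psme4, was lost whichever 1 library was left out. The exceptions among the falls were Psmb2, which was no longer called without library 1 of 45 min (-0.20), and Psme3, which was no longer called without library 4 of 45 min or 1 of 90 min (-0.14 to -0.12). From 90 to 180 min the core and cap gave no call: of 46 members, 3 activators fell (6.52% of members, against 6.97% of all genes) and 1 rose (2.17%, against 4.45%). Those shares lie near the background, as do those without overlap, 3 members below and 1 above, against 6.99% and 5.27% of all genes. The rise, that of Psme3, was lost without library 1 of 90 min or 1 of 180 min, and 2 rises were called without library 3 of 90 min. The comparisons share libraries and are not independent of each other.

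**Figure D3:**
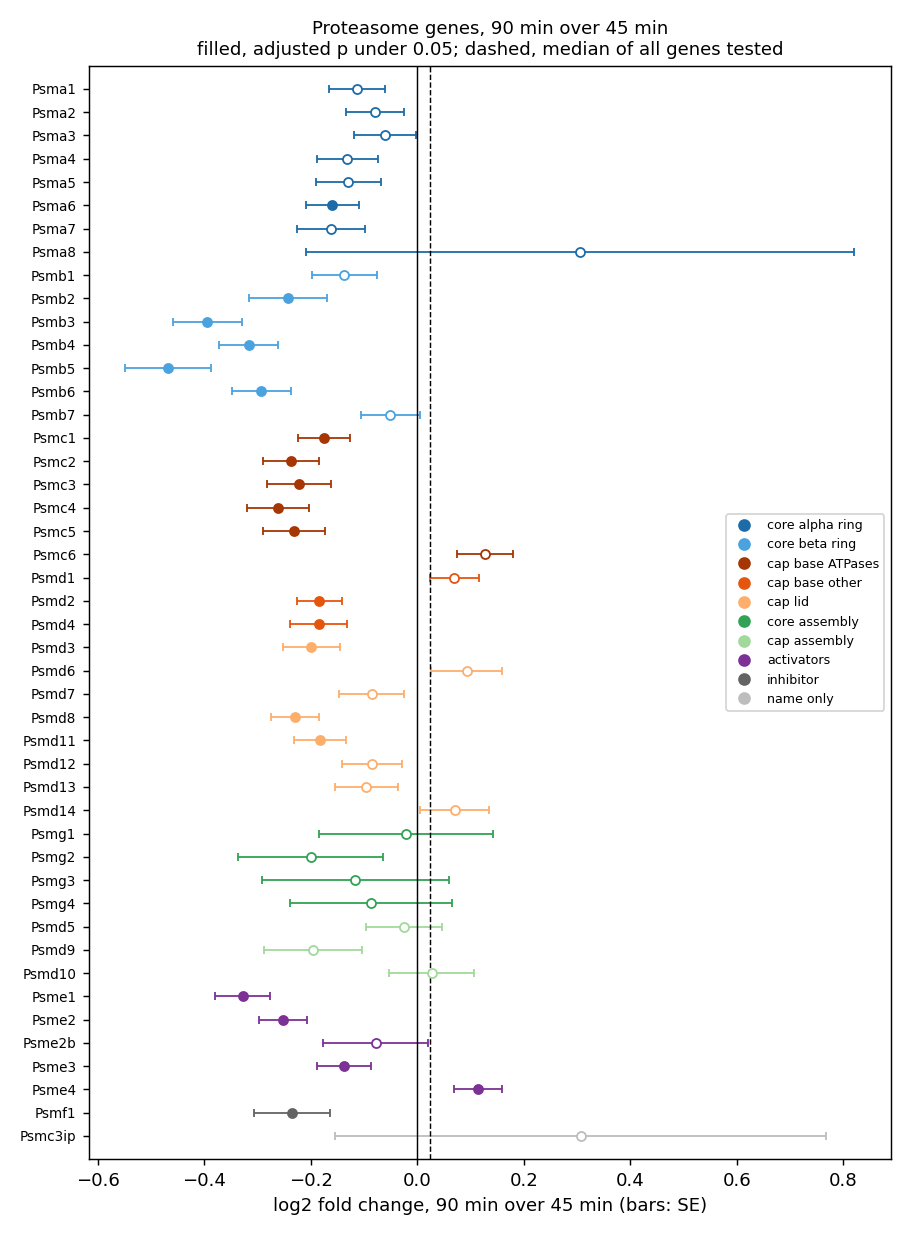
Log2 fold change with its SE at 90 min over 45 min (x axis) for each of the 46 genes (y axis), coloured by role and filled where called. All 7 beta ring genes lie left of 0, from -0.47 for Psmb5 to -0.050 for Psmb7, as do 7 of 8 alpha ring genes. Psmc6, Psmd1, Psmd6 and Psmd14 lie right of 0 without a call.

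In the alpha ring, the gate of the core, Psma6 was the only gene called in any of the 5 comparisons. Psma6 (ENSMUSG00000021024) had 105, 103, 109.99 and 107 CPM in macrophages alone, 118, 114, 122 and 123 at 45 min, 111, 107, 103 and 106 at 90 min, and 112, 105, 105 and 112 at 180 min. Its libraries of 45 min all lay above every library of the other groups, which overlapped. The rise at 45 min was 0.16 (SE 0.049, adjusted p = 0.0215) and the fall at 90 min against 45 min was -0.16 (SE 0.05, adjusted p = 0.0118) in edgeR's quasi-likelihood test. The rise was no longer called without library 4 of 45 min (0.16), with adjusted p-values of 0.00281 to 0.0665 over all alternatives. The other 6 widely used alpha genes had fold changes of -0.022 (Psma3) to 0.15 (Psma5) at 45 min with no call. Psma5 passed the test over the 3 times (adjusted p = 0.0280 by edgeR) but no single comparison. Summed over the ring, the level was 613 to 624 CPM in macrophages alone, 627 to 685 CPM at 45 min, 594 to 619 CPM at 90 min and 600 to 616 CPM at 180 min, so 45 min again lay above the rest.

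The beta ring holds the 3 catalytic subunits Psmb5, Psmb6 and Psmb7. Psmb6 (ENSMUSG00000018286) had 96.5, 103, 109 and 101 CPM in macrophages alone, 119.9, 116, 120.3 and 127 at 45 min, 103, 107, 97.3 and 88.2 at 90 min, and 107, 105, 98.2 and 94.1 at 180 min. All 4 libraries of 45 min were above every library of the other groups. It rose by 0.24 (SE 0.054, adjusted p = 0.00169) at 45 min and was lower at 90 min than at 45 min, at -0.29 (SE 0.055, adjusted p = 3.64e-05), and it was the only rise at 45 min called under all 23 alternatives. At 90 and 180 min Psmb6 did not pass the test against macrophages alone (-0.056 and -0.025). Psmb5 (ENSMUSG00000022193) had 35.1, 35.4, 39.8 and 34.5 CPM in macrophages alone, 40.98, 41.6, 39.7 and 40.9 at 45 min, 25.3, 32.5, 30.6 and 29.4 at 90 min, and 34.01, 33.1, 26.2 and 30.3 at 180 min. Its libraries of 90 and 180 min all lay below those of macrophages alone, and those of 45 min overlapped with them at the upper end. Against macrophages alone it fell at a log2 fold change of -0.30 (SE 0.082, adjusted p = 0.00532) at 90 min and -0.24 (SE 0.081, adjusted p = 0.0178) at 180 min, and at 90 min against 45 min at -0.47 (SE 0.081, adjusted p = 6.91e-06), the largest fall of a core or cap gene in that comparison. The fall at 180 min was no longer called without library 3 of macrophages alone or libraries 3 or 4 of 180 min (-0.22 to -0.17), with adjusted p-values of 0.000542 to 0.148 over all alternatives, whereas the fall at 90 min was called under each.

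Psmb7, which cuts after basic residues, gave no call. It (ENSMUSG00000026750) had 88.8, 83.5, 89.9 and 85.2 CPM in macrophages alone, 92.7, 84.99, 94.7 and 101 at 45 min, 95.4, 86.1, 93.8 and 85.8 at 90 min, and 91.1, 85.996, 84.4 and 87.9 at 180 min, with all groups overlapping. Its fold change was 0.10 (SE 0.055, adjusted p = 0.248) at 45 min, 0.054 (SE 0.056, adjusted p = 0.554) at 90 min and 0.0072 (SE 0.056, adjusted p = 0.945) at 180 min in edgeR's quasi-likelihood test. An exon of Psmb7 overlaps one of Nek6, a mitotic kinase gene on the opposite strand, which rose by 0.62 at 90 min and 1.18 at 180 min. The strand setting of the counting is not given in the sources used here, and the part of Nek6 reads in Psmb7 was not tested. The non-catalytic Psmb3 (ENSMUSG00000069744) had 54.6, 49.5, 50.5 and 50.2 CPM in macrophages alone, 60.4, 55.99, 64.2 and 58.9 at 45 min, 48.05, 46.8, 44.1 and 43.3 at 90 min, and 47.98, 47.04, 46.3 and 44.4 at 180 min. Each library of 45 min was above every other library. It rose by 0.22 (SE 0.062, adjusted p = 0.0109) at 45 min and fell at a log2 fold change of -0.39 (SE 0.065, adjusted p = 2.62e-06) at 90 min against 45 min, while 90 and 180 min against macrophages alone gave -0.17 and -0.14 with no call. Psmb4 fell at a log2 fold change of -0.18 (SE 0.056, adjusted p = 0.0132) at 90 min and -0.18 (SE 0.055, adjusted p = 0.0099) at 180 min, and was not called at 90 min without library 3 of macrophages alone or libraries 2 or 4 of 90 min (-0.16 to -0.14) or at 180 min without library 3 of macrophages alone or library 3 of 180 min (-0.13). Psmb1 fell at a log2 fold change of -0.16 (SE 0.062, adjusted p = 0.0378) at 180 min, a call lost without libraries 2, 3 or 4 of macrophages alone, libraries 1, 3 or 4 of 45 min, library 3 of 90 min or libraries 1 or 3 of 180 min (-0.17 to -0.096).

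**Figure D4:**
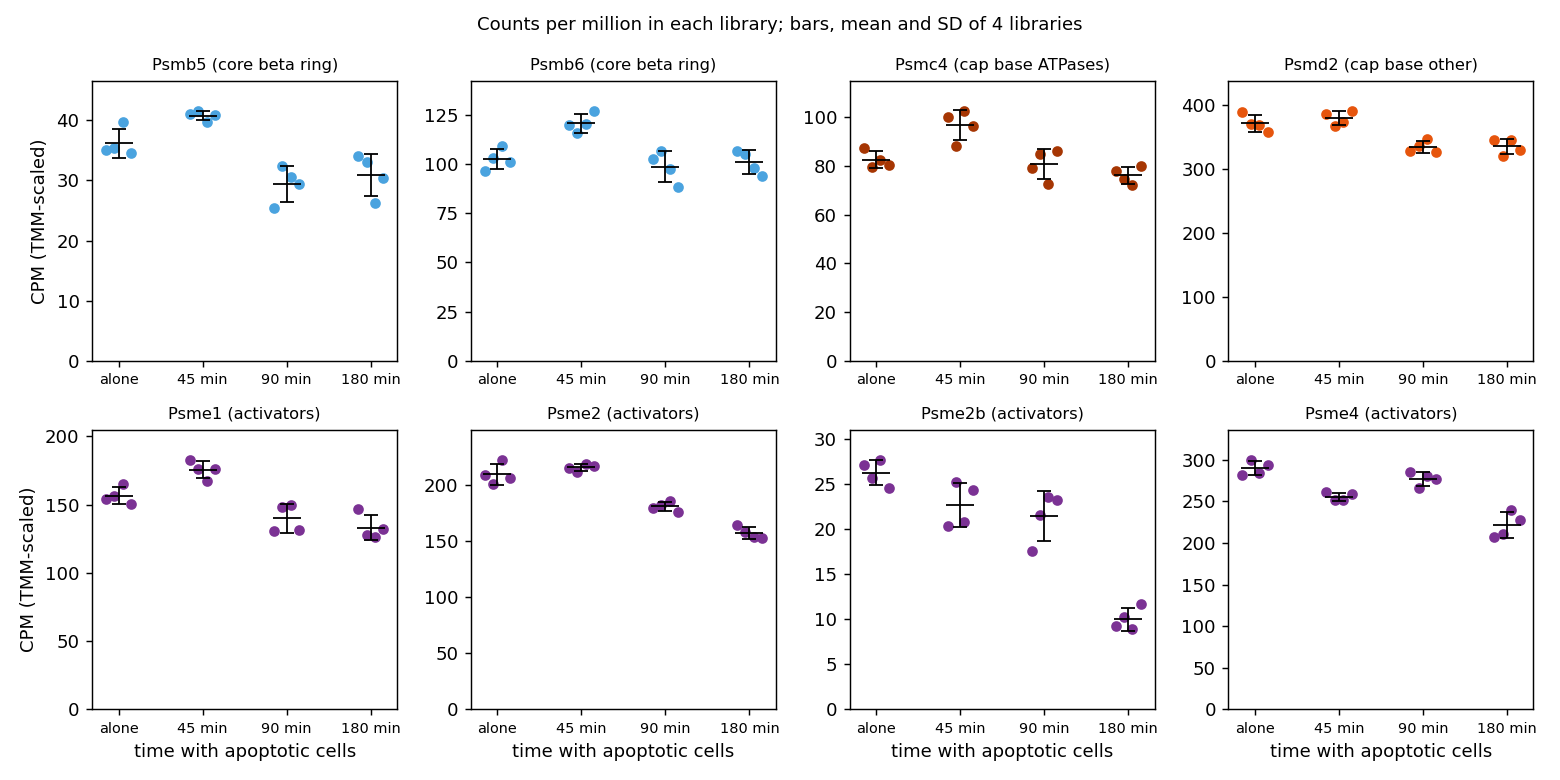
CPM scaled to library size (y axis, from 0) of 8 members in each of the 16 libraries, by time with apoptotic cells (x axis); bars are the mean and SD of 4 libraries. Psmb6 and Psmc4 are highest at 45 min, Psmb5, Psmd2, Psme1 and Psme2 lie lower at 90 and 180 min, and Psme2b drops at 180 min to between 8.92 and 11.7 CPM.

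Promoter letters of Psmb5, Psmb6, Psmc1, Psmc2 and Psme4, which were not called alike, are shown for reference. They come from RefSeq on GRCm38.p6, a build before that of the counts. Windows of 250 bases before to 50 after the start were matched for 38 of the 46 genes. The catalytic gene Psmb7 was among those without a window and was not searched. Each window was searched on both strands for TGACNNNGC, the core letters of the antioxidant response element that Nfe2l1 and related factors bind, and for CCGGAAGT, an ETS factor motif, and no match of one motif overlapped a match of another. CACGTG reads the same on both strands, and 2 CCAAT matches in Psmd14 overlap each other on opposite strands. Bases are numbered from 0 at the start, and capitals mark the match. The catalytic genes Psmb5 and Psmb6 both hold the first motif, Psmb5 at -47 to -39 (chr14:54617996-54618055, minus strand) and Psmb6 at -9 to -1 (chr11:70525297-70525356, plus strand).
Psmb5: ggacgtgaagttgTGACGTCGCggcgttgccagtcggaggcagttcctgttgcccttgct
Psmb6: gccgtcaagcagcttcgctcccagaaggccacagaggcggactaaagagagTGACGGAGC
The ATPase genes Psmc1 (chr12:100110142-100110201, plus strand) and Psmc2 (chr5:21785175-21785274, plus strand) hold the ETS motif as its reverse complement. Psme4 (chr11:30771695-30771774, plus strand), which fell at 45 min, holds it as spelled, as does Psmd13, which rose.
Psmc1: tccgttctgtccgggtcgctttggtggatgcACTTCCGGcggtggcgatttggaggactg
Psmc2: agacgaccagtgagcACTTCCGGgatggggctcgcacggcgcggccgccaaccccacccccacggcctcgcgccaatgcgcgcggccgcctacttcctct
Psme4: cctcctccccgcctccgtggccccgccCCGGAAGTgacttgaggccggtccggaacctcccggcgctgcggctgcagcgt
TGACNNNGC was in 6 of the 38 windows (15.8%), against 13.99% of the windows of all 27025 genes. CCGGAAGT was in 9 of 38 (23.7%), against 4.31% of all. The interferon-stimulated response element, searched as GAAA and again GAAA after any 2 bases, was in 5 of 38 (13.2%), those of Psmb3, Psmd4, Psmd9, Psme1 and Psmg4, against 3.99% of all. Of the other motifs searched, CCAAT was in 13 (34.2%, against 41.1%) and CACGTG in 3 (7.89%, against 8.09%). Genes with and without a match are found among those that fell at 90 min against 45 min, and a match is a description of these letters only.

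Among the ATPases that unfold substrates, Psmc4 moved most at 45 min. Psmc4 (ENSMUSG00000030603) had 87.6, 79.8, 82.5 and 80.4 CPM in macrophages alone, 100.3, 88.4, 103 and 96.4 at 45 min, 79.2, 84.9, 72.6 and 86.1 at 90 min, and 77.8, 74.7, 72.1 and 80.2 at 180 min. The 45 min libraries lay above all others. It rose by 0.23 (SE 0.057, adjusted p = 0.0037) at 45 min and was lower at 90 min than at 45 min, at -0.26 (SE 0.058, adjusted p = 0.000378), with no call against macrophages alone at 90 or 180 min. Psmc1 and Psmc3 also rose at 45 min, by 0.15 and 0.19, but Psmc1 was no longer called without libraries 2 or 4 of macrophages alone or library 4 of 45 min (0.15 to 0.16) nor Psmc3 without library 2 of macrophages alone or library 4 of 45 min (0.18 to 0.19). An exon of Psmc3 overlaps the zinc transporter gene Slc39a13 on the opposite strand, whose fold change at 45 min was 0.12 (adjusted p = 0.345 in edgeR).

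Psmc2 (ENSMUSG00000028932) had 113, 119, 123 and 119 CPM in macrophages alone, 128, 116, 125 and 133 at 45 min, 112, 107, 107 and 100.3 at 90 min, and 107, 103, 100.3 and 114 at 180 min. Against macrophages alone it fell at a log2 fold change of -0.15 (SE 0.053, adjusted p = 0.0302) at 90 min, where the groups did not overlap, and -0.16 (SE 0.053, adjusted p = 0.0172) at 180 min, where they did. These calls were lost without libraries 2, 3 or 4 of macrophages alone or library 4 of 90 min (-0.16 to -0.13) at 90 min and without libraries 2 or 3 of macrophages alone or library 3 of 180 min (-0.15 to -0.13) at 180 min. Psmc5 (ENSMUSG00000020708) had 82.2, 78.3, 80.01 and 72.1 CPM in macrophages alone, 86.4, 84.01, 85.3 and 80.8 at 45 min, 74.6, 72.3, 71.3 and 68.6 at 90 min, and 75.3, 70.9, 69.8 and 63.5 at 180 min, with overlap between 180 min and macrophages alone. Its fall at 180 min was -0.17 (SE 0.058, adjusted p = 0.0224), and it was no longer called without libraries 1, 2 or 3 of macrophages alone or library 4 of 180 min (-0.16 to -0.11). Psmc1 to Psmc5 all fell at 90 min against 45 min, at -0.17 (Psmc1) to -0.26 (Psmc4), and all 5 falls were called under each of the 23 alternatives. Psmc6 alone of the 6 stood on the other side of 0 there, at 0.13 (SE 0.053, adjusted p = 0.0634).

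The base of the cap also holds the scaffolds Psmd1 and Psmd2 and the ubiquitin receptor Psmd4. Psmd2 (ENSMUSG00000006998) had 390.2, 371, 369 and 359 CPM in macrophages alone, 386, 368, 374 and 391 at 45 min, 328, 336, 347 and 327 at 90 min, and 346, 321, 345 and 329.5 at 180 min. Every library of 90 and 180 min was below every library of macrophages alone and of 45 min, which overlapped. It fell at a log2 fold change of -0.15 (SE 0.042, adjusted p = 0.00493) at 90 min and -0.15 (SE 0.042, adjusted p = 0.00439) at 180 min against macrophages alone, and both calls held under all 23 alternatives. Psmd4 (ENSMUSG00000005625) had 97.3, 87.6, 94.7 and 92.8 CPM in macrophages alone, 108, 111, 102 and 103 at 45 min, 96.9, 95.1, 93.9 and 88.2 at 90 min, and 93.6, 83.4, 81.8 and 89.4 at 180 min. Its 4 libraries of 45 min stood above the rest, with a rise of 0.19 (SE 0.053, adjusted p = 0.0108) at 45 min and a fall of -0.19 (SE 0.054, adjusted p = 0.00684) at 90 min against 45 min. Psmd1 (ENSMUSG00000026229) had 149, 154, 157 and 161 CPM in macrophages alone, 151, 152, 158 and 163 at 45 min, 161, 165, 167 and 163 at 90 min, and 173, 159.9, 168 and 172 at 180 min, with the highest values at 180 min but overlapping groups. Its rise at 180 min was 0.12 (SE 0.046, adjusted p = 0.0467), not called without libraries 1, 2 or 3 of macrophages alone, library 1 of 90 min or libraries 1, 3 or 4 of 180 min (0.095 to 0.13), with adjusted p-values of 0.0116 to 0.165 over all alternatives.

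Of the 8 lid genes, 2 rose at 45 min against macrophages alone (25%, against 4.69% of all genes) and none fell (against 6.11%). At 90 min 1 rose and 1 fell (12.5% each, against 11.1% and 9.97%), shares near the background. None was called at 180 min, against 15.1% of all genes higher and 16% lower. Psmd13 (ENSMUSG00000025487) had 62.5, 64.9, 63.9 and 62.2 CPM in macrophages alone, 74.9, 67.4, 71.98 and 73.7 at 45 min, 71.6, 67.6, 67.1 and 63.6 at 90 min, and 66.5, 57.3, 66.4 and 65.8 at 180 min. The libraries of 45 min lay above those of macrophages alone, and the rise was 0.18 (SE 0.058, adjusted p = 0.0291), lost without libraries 1 or 4 of macrophages alone or libraries 1 or 4 of 45 min (0.18 to 0.19). Psmd8 rose by 0.14 (SE 0.045, adjusted p = 0.0394) at 45 min, lost without libraries 1, 2 or 4 of macrophages alone or library 4 of 45 min (0.12 to 0.15). An exon of Psmd13 overlaps the mitochondrial deacetylase gene Sirt3 on the opposite strand (0.051 at 45 min, not called). Psmd11 (ENSMUSG00000017428), which clamps the lid to the core, had 135, 129, 139 and 136 CPM in macrophages alone, 133, 138, 132 and 149 at 45 min, 126, 122, 119.96 and 119 at 90 min, and 129, 128, 126 and 127 at 180 min. All 90 min libraries were below those of macrophages alone. The fall was -0.15 (SE 0.049, adjusted p = 0.0254) at 90 min, and it was no longer called without library 3 of macrophages alone or libraries 3 or 4 of 90 min (-0.14 to -0.13). A transcribed near-copy of Psmd11, A730017L22Rik, held 9.73% as many counts as Psmd11 itself, so reads may be shared between them.

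Psmd6 (ENSMUSG00000021737) had 40.1, 44.96, 47.4 and 43.9 CPM in macrophages alone, 46.3, 47.96, 46.3 and 48.2 at 45 min, 51.1, 52.3, 53.5 and 44.9 at 90 min, and 48.05, 48.6, 49.9 and 50.4 at 180 min, and 90 min overlapped with macrophages alone through its lowest library. Its rise at 90 min was 0.19 (SE 0.068, adjusted p = 0.0333), lost without libraries 1, 2 or 4 of macrophages alone, libraries 1, 2 or 3 of 90 min or libraries 2 or 3 of 180 min (0.14 to 0.20), with adjusted p-values of 0.0106 to 0.195 over all alternatives. Psmd14, the deubiquitinase that strips ubiquitin chains, gave -0.13, -0.059 and -0.033 at 45, 90 and 180 min with no call, and its partner in the lid Psmd7 gave 0.081, -0.004 and -0.0036, also with none. At 90 min against 45 min Psmd3, Psmd8 and Psmd11 fell (-0.20, -0.23 and -0.18), each under all 23 alternatives, and the other 5 lid genes gave no call.

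The 7 assembly factors gave 2 calls, both of which depended on single libraries. They were 1 fall at 90 min (14.3%, against 9.97% of all genes) and 1 at 180 min (14.3%, against 16%), both against macrophages alone. Psmg2 (ENSMUSG00000024537), a chaperone of the alpha ring, had 10.3, 11.8, 12.1 and 12.02 CPM in macrophages alone, 9.98, 10.5, 10.1 and 9.90 at 45 min, 10.5, 7.86, 10.3 and 6.79 at 90 min, and 9.81, 9.10, 10.5 and 13.7 at 180 min. The groups overlapped, with 2 of the 4 libraries of 90 min below all others. Its fall at 90 min was -0.39 (SE 0.14, adjusted p = 0.032), lost without libraries 2, 3 or 4 of macrophages alone or libraries 2 or 4 of 90 min (-0.38 to -0.28). Psmd9 (ENSMUSG00000029440), a chaperone of the cap base, had 27.2, 23.4, 26.1 and 25.1 CPM in macrophages alone, 26.8, 22.5, 26.3 and 25.3 at 45 min, 20.6, 23.7, 23.6 and 20.3 at 90 min, and 25.7, 20.9, 19.5 and 20.8 at 180 min, again with overlap. Its fall at 180 min was -0.24 (SE 0.092, adjusted p = 0.0434), lost without libraries 1, 3 or 4 of macrophages alone, libraries 1, 2, 3 or 4 of 45 min, libraries 3 or 4 of 90 min or libraries 2, 3 or 4 of 180 min (-0.24 to -0.19). The summed level of core assembly factors was 28.7 to 31.3 CPM in macrophages alone, 28.5 to 33.4 CPM at 45 min, 24.7 to 31.9 CPM at 90 min and 26.2 to 36.6 CPM at 180 min, with all groups overlapping. Among those with no call, Psmg1 stood at 0.36 (SE 0.16, adjusted p = 0.152) at 45 min in edgeR's quasi-likelihood test.

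At 180 min against macrophages alone, the 3 largest falls of any member were those of the activators Psme2b, Psme2 and Psme4. Psme1 and Psme2 encode the interferon-inducible activator that favours antigenic peptides, Psme3 its nuclear relative, and Psme4 a large nuclear activator tied to histone breakdown. The summed level of the 5 was 784 to 822 CPM in macrophages alone, 779 to 799 CPM at 45 min, 713 to 751 CPM at 90 min and 622 to 655 CPM at 180 min, so 90 and 180 min lay below the other groups and 180 min lowest. Psme1 (ENSMUSG00000022216) had 154, 156, 165 and 150.2 CPM in macrophages alone, 183, 176, 167 and 176 at 45 min, 130.3, 148, 149.9 and 131 at 90 min, and 146, 128, 126 and 132 at 180 min. Its 45 min libraries stood above and its 90 and 180 min libraries below those of macrophages alone. It rose by 0.17 (SE 0.051, adjusted p = 0.0228) at 45 min and fell at a log2 fold change of -0.16 (SE 0.052, adjusted p = 0.0196) at 90 min and -0.23 (SE 0.052, adjusted p = 0.000269) at 180 min against macrophages alone, and -0.33 (SE 0.052, adjusted p = 1.26e-06) at 90 min against 45 min. The rise was no longer called without library 4 of macrophages alone or library 1 of 45 min (0.16 to 0.17) and the fall at 90 min not without library 3 of macrophages alone or libraries 1 or 4 of 90 min (-0.14 to -0.13), while the fall at 180 min was called under all 23 alternatives.

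Psme2 (ENSMUSG00000079197) had 209, 201, 223 and 206 CPM in macrophages alone, 216, 212, 219 and 217 at 45 min, 179.8, 183, 186 and 176 at 90 min, and 165, 159, 153 and 153 at 180 min. Macrophages alone and 45 min overlapped, and each later group lay wholly below the group before it. The falls were -0.21 (SE 0.045, adjusted p = 0.000313) at 90 min and -0.42 (SE 0.046, adjusted p = 3.03e-11) at 180 min against macrophages alone and -0.20 (SE 0.046, adjusted p = 0.000908) at 180 min against 90 min, all called under every alternative. Psme2b (ENSMUSG00000078153) had 27.1, 25.7, 27.7 and 24.6 CPM in macrophages alone, 20.4, 25.2, 20.8 and 24.4 at 45 min, 17.5, 21.6, 23.6 and 23.2 at 90 min, and 9.20, 10.2, 8.92 and 11.7 at 180 min. Its 180 min libraries were all below 12 CPM and all other libraries above 17 CPM. It fell at a log2 fold change of -1.39 (SE 0.11, adjusted p = 6.16e-17) at 180 min against macrophages alone and -1.10 (SE 0.11, adjusted p = 4.43e-12) at 180 min against 90 min, and the smaller fall at 90 min, -0.29 (SE 0.099, adjusted p = 0.0285), was lost without libraries 1 or 3 of macrophages alone or library 1 of 90 min (-0.29 to -0.22).

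Psme2b is a near-copy of Psme2, so the counting of reads between them is uncertain. Over the 720 coding bases of each, 5 differ (99.3% identical), counted from the start codon in the GENCODE M21 transcripts: C312T, A369G, C489T, C519T and C543T, with the base of Psme2 before the position and that of Psme2b after it. The stretch from base 487 to 546 holds 3 of the 5, shown here in capitals because reads that cover them can tell the genes apart.
Psme2: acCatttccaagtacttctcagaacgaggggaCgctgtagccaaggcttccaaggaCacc
Psme2b: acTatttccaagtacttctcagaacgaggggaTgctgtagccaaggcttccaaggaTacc
The longest run without a difference is 311 bases. An exon of Psme2b also overlaps one of 9930111J21Rik1 on the same strand, a gene that had 95.97, 101, 92.6 and 102 CPM in macrophages alone, 79.6, 86.97, 72.4 and 72.4 at 45 min, 62.1, 73.6, 67.5 and 65.9 at 90 min, and 31.2, 45.4, 41.7 and 39.1 at 180 min. That gene fell at a log2 fold change of -1.32 (SE 0.072, adjusted p = 3.28e-23) at 180 min against macrophages alone and -0.78 (SE 0.074, adjusted p = 9.43e-13) at 180 min against 90 min, beside -1.39 and -1.10 for Psme2b. At 90 min against macrophages alone it gave -0.54, beside -0.29 for Psme2b. At 90 min against 45 min it fell too, at -0.21 (SE 0.069, adjusted p = 0.0185), where Psme2b gave -0.078 with no call. The part of its transcripts in the Psme2b count was not tested.

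Psme3 (ENSMUSG00000078652) had 112, 124, 123 and 122 CPM in macrophages alone, 117, 115, 121 and 123 at 45 min, 101, 108, 112 and 112 at 90 min, and 128, 115, 119 and 123 at 180 min. Its 90 min libraries lay below macrophages alone, and 180 min above 90 min. The fall at 90 min was -0.15 (SE 0.051, adjusted p = 0.0242) against macrophages alone, lost without libraries 2, 3 or 4 of macrophages alone or library 1 of 90 min (-0.15 to -0.14), and the rise at 180 min against 90 min was 0.17 (SE 0.052, adjusted p = 0.0239), lost without library 1 of 90 min or library 1 of 180 min (0.14 to 0.15). Psme4 (ENSMUSG00000040850) had 282, 300.03, 284 and 293 CPM in macrophages alone, 261, 252, 251 and 259 at 45 min, 285, 266, 280.4 and 277 at 90 min, and 207, 210.5, 239.7 and 228 at 180 min. The 45 and 180 min libraries lay below macrophages alone, while 90 min overlapped with it. Psme4 fell at a log2 fold change of -0.18 (SE 0.045, adjusted p = 0.00394) at 45 min and -0.39 (SE 0.045, adjusted p = 2.73e-10) at 180 min against macrophages alone, and -0.32 (SE 0.046, adjusted p = 1.54e-07) at 180 min against 90 min. At 45 min no call remained without library 2 of macrophages alone (-0.15), and the falls at 180 min were called under all 23 alternatives. The rise at 90 min against 45 min, 0.11 (SE 0.045, adjusted p = 0.0495), was lost whichever 1 of the 16 libraries was left out (0.085 to 0.12), and with a length and GC trend removed it was -0.0080.

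The inhibitor Psmf1 (ENSMUSG00000032869), which binds the core and blocks it in cell-free assays, had 44.5, 51.2, 47.1 and 50.9 CPM in macrophages alone, 52.01, 48.4, 48.4 and 50.5 at 45 min, 38.6, 48.2, 42.9 and 39.6 at 90 min, and 45.7, 42.1, 38.3 and 44.03 at 180 min. Its groups overlapped in both comparisons with macrophages alone, in which it fell at a log2 fold change of -0.19 (SE 0.072, adjusted p = 0.0494) at 90 min and -0.19 (SE 0.072, adjusted p = 0.038) at 180 min. These calls were lost without libraries 2, 3 or 4 of macrophages alone, libraries 1, 2, 3 or 4 of 45 min or libraries 1, 3 or 4 of 90 min (-0.21 to -0.16) at 90 min and without libraries 2, 3 or 4 of macrophages alone, libraries 1, 2, 3 or 4 of 45 min or libraries 2, 3 or 4 of 180 min (-0.20 to -0.14) at 180 min. At 90 min it lay below 45 min in every library, with a fall of -0.23 (SE 0.072, adjusted p = 0.0097) that held under all alternatives. Psmc3ip, the gene that shares only the name, was at 0.349 to 1.86 CPM over all libraries and gave no call.

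The immunoproteasome genes, which replace catalytic subunits of the core (Psmb8 for Psmb5, Psmb9 for Psmb6 and Psmb10 for Psmb7), are not members but were measured beside them. Psmb8 averaged 245 ± 8.27 CPM in macrophages alone, 267 ± 9.70 at 45 min, 225 ± 8.75 at 90 min and 186 ± 8.37 at 180 min (SD, n = 4 each). Its level at 180 min was below that of macrophages alone, at a log2 fold change of -0.40 (SE 0.046, adjusted p = 1.1e-10). Psmb9 and Psmb10 rose at 45 min (0.18 and 0.22) and fell at 180 min (-0.25 and -0.34), and Psmb8 and Psmb10 fell at 90 min (-0.12 and -0.20). All 3 fell at 90 min against 45 min, at -0.20 to -0.42, beside 13.3% of all genes called lower there. Of all genes, 4.69% were called higher at 45 min, and 9.97% and 16% lower at 90 and 180 min. At 180 min Psmb5, the constitutive counterpart of Psmb8, was at -0.24, while Psmb6 and Psmb7 gave no call; the difference between the sets was not tested.

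Other genes of the pathway were counted in lists set by function, beside shares of all genes called higher and lower of 4.69% and 6.11% at 45 min, 11.1% and 9.97% at 90 min, and 15.1% and 16% at 180 min. Of 11 partners of the proteasome without a Psm symbol, 2 rose and none fell at 45 min, 2 rose and 2 fell at 90 min, and 5 rose and 2 fell at 180 min. Zfand5, which encodes a zinc-finger activator of the proteasome, rose at each time, by 0.19, 0.38 and 0.44, as did Zfand2a, a stress-inducible cap partner (0.21, 0.18 and 0.18). The ubiquitin receptor Adrm1 rose at 180 min (0.17), and the deubiquitinase Usp14 also (0.21). Pomp, the chaperone that completes the core, fell at 180 min (-0.19), and the small lid subunit Sem1 gave 0.16, 0.064 and -0.11 with no call. At 90 min against 45 min 2 of the 11 rose and 3 fell, against 14.8% and 13.3% of all genes. There Akirin2, which carries proteasomes into the nucleus, fell at a log2 fold change of -0.28 and Pomp at -0.21.

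Nfe2l1 encodes the membrane-bound transcription factor that restores proteasome genes when the protease is inhibited, and it is cleaved and trimmed by proteins of its own axis. Nfe2l1 gave 0.025 at 45 min with no call and fell at a log2 fold change of -0.25 (SE 0.04, adjusted p = 1.11e-06) at 90 min and -0.33 (SE 0.04, adjusted p = 8.48e-10) at 180 min against macrophages alone. Its means were 520.2 ± 10.2 CPM in macrophages alone, 529 ± 11.9999 at 45 min, 436 ± 9.48 at 90 min and 415 ± 13.4 at 180 min (SD, n = 4 each). Of the 8 genes of the axis, 3 rose and none fell at 45 min, 2 rose and 3 fell at 90 min, and 2 rose and 4 fell at 180 min, counts that stand beside the same shares of all genes. The rises at 90 and 180 min were those of the small partner proteins Maff (1.38 and 1.75) and Mafg (0.30 and 0.42). Syvn1 and Sel1l, of a ubiquitin ligase complex in the endoplasmic reticulum, fell at both times, at -0.47 and -0.33 at 180 min. At 180 min against 90 min 3 of the 8 fell and none rose, against 6.97% and 4.45% of all genes, with Mafk at -0.47.

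Upstream of the protease, the polyubiquitin gene Ubb fell at a log2 fold change of -0.27 at 90 min, and Uba1, which encodes the E1 enzyme that activates ubiquitin, at -0.22 at 90 min and -0.31 at 180 min. The other ubiquitin and E1 genes looked at did not all fall, and at 90 min a gene among them was called higher. Of 14 shuttle and segregase genes, which extract and deliver ubiquitin-tagged proteins, 1 rose and 1 fell at 45 min, 1 rose and 7 fell at 90 min (against 11.1% and 9.97% of all genes), and 2 rose and 8 fell at 180 min (against 15.1% and 16%). Their median was -0.14 at 90 min and -0.15 at 180 min, beside 0.0033 and 0.0082 over all genes. Among them the ATPase Vcp fell at a log2 fold change of -0.25 at 90 min, the shuttle Ubqln1 at -0.26 and the adaptor Ubxn7 at -0.51. Of 8 genes of the response to damaged proteins, 1 rose at 45 min, 1 fell at 90 min, and 1 rose and 1 fell at 180 min, beside the shares of all genes given above. Sqstm1, which ties ubiquitin-tagged cargo to autophagy, rose at 45 and 180 min (0.23 and 0.32), Bag3 fell at 90 min (-0.22), and the heat shock genes Hspa1a and Hspa1b, at under 4 CPM on average, gave no call at any time.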

How the data were processed

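The authors deposited raw counts per gene for 16 libraries in a table whose column names give the group but no replicate number. Per the submitters' processing notes, STAR 2.7.9a, SAMtools and HTSeq were used with the genome build mm39; whether counting used strand, and how shared or human reads were handled, is not given in the sources used here. Per the labels' protocols, the library kit is directional. Symbols, lengths and GC content came from GENCODE M21, an earlier build; 52083 of 55416 IDs had a symbol, and the rest held 0.223% to 0.341% of counts. Replicates differed by more than sampling noise (chi-square per degree of freedom 3.98 to 10.2). Each was counted as 1, though such a difference cannot tell separate cultures from technical repeats.

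Genes were filtered by edgeR (minimum count 10, minimum total 15), scaled with edgeR's TMM factors, and tested in 1 quasi-likelihood fit of all 16 libraries (edgeR 4.0.16, R 4.3.3) with Benjamini-Hochberg adjustment over 14168 genes. The biological coefficient of variation was 7.81%. The fit was tested on simulated data. CPM are counts divided by scaled library size. Copies were sought with blastn 2.17.0+ at 95% identity over 200 bases; 10 members had one outside their own locus, and in 5 it held over 1% of the member's count. Members and lists were chosen with earlier results of these data known. Members given in full were the called genes with the largest rise and fall per role at each time, the catalytic subunits, and the 3 largest between times; list genes were those of smallest p and 7 set by name. Alternatives were another scaling, DESeq2 1.42.0, no filter, each library left out, only the groups compared, coding genes only, thinned libraries and a removed length and GC trend. Leaving out a library of a group not compared acts only through filter, scaling, shared spread and adjustment, so it is a weaker check. The counts over a list of ubiquitin and E1 genes are not reported here.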

Additional observations from a re-analysis of the deposited data

Results flagged for a closer look

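In 4 of the 184 groups of 4 libraries looked at, 1 library stood far from the other 3, with a gap, as a share of the group's range, above the critical value of Dixon's test for 4 values; chance flags about 1 in 20 such groups. Psmd13 of the lid had 57.3 CPM in library 2 of 180 min, against 65.8 to 66.5 CPM in the others of that group. Psmd12, also of the lid, had 72.0 CPM in library 1 of 45 min, against 77.3 to 78.3 CPM. In macrophages alone, Psmd3 of the lid had 101.6 CPM in library 2, against 107.0 to 107.8 CPM, and the activator Psme3 had 112.3 CPM in library 1, against 122 to 124 CPM.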

How the results depend on the processing

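No paired analysis was possible because the columns carry no replicate numbers. Of the 20 falls at 90 min against 45 min, 18 were called under all 23 alternatives, and the count ran from 19 to 28. With each library left out in turn, rises at 45 min ran from 5 to 13 and falls from 0 to 1; at 90 min rises ran from 0 to 2 and falls from 3 to 12; at 180 min rises ran from 0 to 2 and falls from 5 to 12; rises at 90 min against 45 min ran from 0 to 1 and at 180 min against 90 min from 0 to 2. Thinned libraries gave 6 rises at 45 min, 0 rises at 90 min, 7 falls at 180 min and 0 rises at 90 min against 45 min. A removed length and GC trend gave 0 falls at 45 min, 0 rises and 18 falls at 90 min, 0 rises and 19 falls at 180 min and 0 rises at 90 min against 45 min. No filter gave 0 rises at 90 min, 0 at 180 min and 0 at 90 min against 45 min, and DESeq2 size factors 0 in the last. DESeq2's own test gave 2 rises at 180 min, and coding genes only gave 2 at 180 min and 2 at 90 min against 45 min. Signs turned for genes near 0: Psmb7 with the trend removed (-0.053 at 90 min, -0.0597 at 180 min) and at 180 min without library 2 of macrophages alone or 1 of 180 min (-0.0079 to 0.033 over all libraries left out), Psmb6 at 180 min without library 3 of macrophages alone or 4 of 180 min (-0.057 to 0.018) or thinned (0.0012), and Psme4 at 90 min against 45 min with the trend removed (-0.0080). Beyond fewer libraries or counts in the settings that remove them, the cause was not tested. Psme2 and Psme2b summed, an alternative chosen after seeing the data, moved no count by over 1.5 times. That setting only takes away 1 member, so the counts had little room to move, and it cannot show how reads were shared between Psme2 and Psme2b. Depth limits members of low count: Psma8, at a mean of 0.777 CPM in macrophages alone, had an SE of 0.51 on the log2 scale at 45 min.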
